A study of Mus with 12 samples.

Results

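The joint effect of a PDL1 antibody and a CTLA4 antibody was examined in the 374 well-detected genes of a 770-gene panel, those with a value above 60 in all 12 libraries. The panel was the NanoString mouse IO360, on which barcoded probes for immune, stromal and tumour genes are counted without amplification. Total RNA came from formalin-fixed, paraffin-embedded (FFPE) liver tumours named MYC-HCC, and each library was 1 mouse. The 4 groups of 3 mice received the control antibody (Ctrl IgG), 1 checkpoint antibody (Anti PDL1 or Anti CTLA4), or the pair (Anti PDL1+CTLA4, called the combination here). All 4 groups carried the MYC-HCC tumour and received an antibody, and no untreated liver enters the comparison. The sources used here do not give how MYC was expressed, nor the strain, age, antibody clone, dose or time of sampling.

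PDL1 (Cd274), on tumour and myeloid cells, binds PD-1 on T cells and restrains them in the tissue. CTLA4 on T cells competes with CD28 for CD80 and CD86 and restrains their priming. T cells released by either antibody can make interferon-gamma, which acts through the receptor pair Ifngr1 and Ifngr2 and raises antigen presentation and PDL1 itself in the cells that sense it.

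The interaction was measured on log2(value + 1) as the difference between the combination and Anti PDL1, minus the difference between Anti CTLA4 and Ctrl IgG. An interaction of 0 means that the log2 change of the combination from IgG equalled the sum of the changes of the single antibodies, called the additive level here. A negative value means that the combination lay below that level. Values below are deposited normalized counts, libraries are given in the order of their replicate numbers, and tests were made with limma over all 770 genes. In bulk tissue, fewer cells of a type and less RNA per cell cannot be told apart.

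The deposited values have a floor of 20, and the limit of 60 lies above the highest value that a gene listed at the floor could hide, 52.49. The limit also decides which biology is visible. Of the T cell markers on the panel, 0 of 23 were well detected, as were 0 of 9 B and plasma cell markers and 1 of 15 NK and cytotoxic genes, the granzyme Gzma. The antibody target Ctla4 had values between 20 and 52.9 and the PDL1 receptor gene Pdcd1 between 20 and 55.0, so neither entered. Cd80 (44.0 to 74.2), Cd28 (36.9 to 122), Mki67 (57.7 to 4608), Cxcl9 (31.5 to 712) and Spp1 (56.2 to 845) also fell below 60 in at least 1 library. Just inside the limit were Nfkb2, with a lowest value of 60.27 and an interaction of -0.21, Gzma (60.37 and -0.17) and Ube2t (60.37 and 1.56). Just outside were Nfkbie (59.04 and -0.04), Fas (58.98 and -1.81) and Il16 (58.84 and -0.54). Every well-detected gene rested on at least 23 recovered barcode counts in each library, and the recovered counts above the floor totalled 439149 to 864464 per library.

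Several libraries stood apart in liver and proliferation genes. The mean log2 level of 11 liver and hepatocyte genes, all of them well detected, was 10.6 to 10.9 in IgG. It was 10.47, 12.94 and 11.27 in Anti PDL1, 12.29, 12.79 and 10.73 in Anti CTLA4, and 10.88, 11.97 and 10.93 in the combination. The mean of the 22 proliferation genes on the panel ran the other way, at 6.72 in Anti PDL1 2, 7.94 in Anti CTLA4 1, 6.0 in Anti CTLA4 2 and 8.54 in combination 2, against 8.82 to 9.24 in the other 8 libraries. The libraries highest for liver genes were thus 1 of Anti PDL1, 2 of Anti CTLA4 and, with the next highest score, 1 of the combination. These libraries also had the largest scaling factors recovered from the spacing of the values. The factors were 2.101, 2.248, 2.625 and 1.793, against 0.562 to 1.23 in the other 8 libraries. Genes at the floor numbered 144 to 210 in them and 49 to 137 elsewhere. The part of these libraries, or of their scaling, in the interaction was not tested. The genes of smallest p and the lists of at least 4 members are given with their values without Anti PDL1 2, Anti CTLA4 1 and Anti CTLA4 2. That alternative was chosen after seeing the data, also removes the 3 libraries of largest factor, and leaves Anti CTLA4 with 1 library. Genes given by their interaction alone, as examples from a list, have no such value here.

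**Figure D1:**
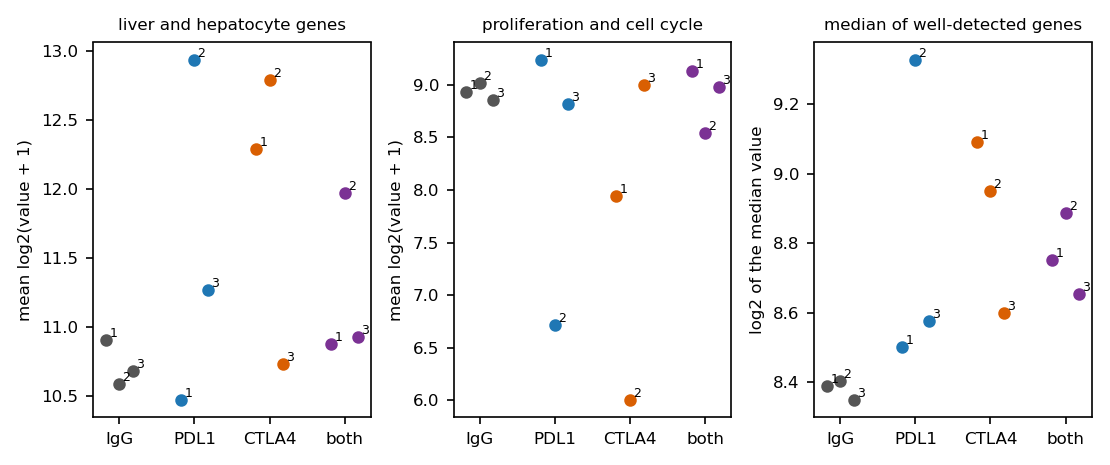
Mean log2 level of the liver and hepatocyte genes, mean log2 level of the proliferation genes, and log2 median value of the 374 well-detected genes in each library, by group; each dot is 1 library. Anti PDL1 2, Anti CTLA4 1 and Anti CTLA4 2 are highest for liver genes and, together, lowest for proliferation genes.

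Across the 374 genes, the combination more often lay below the additive level than above it. The interaction was below 0 in 268 genes (71.7%) and above 0 in 106, against 433 of 770 genes (56.2%) below 0 over the panel. Its median was -0.58 (quartiles -1.34 and 0.13), against -0.18 over the panel, and single genes ran from -3.65 for Arg1 to 3.63 for Birc5. It was below -1 in 141 genes and above 1 in 34. On the linear scale of the values 272 genes were below 0, and the sign differed between the scales in 8.

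No well-detected gene passed an adjusted p of 0.05 for the interaction (limma, 0 of 374; over the panel 10 of 770, 1.3%), and the smallest adjusted p was 0.125, for Ifngr1. At an unadjusted p under 0.05, limma placed 40 well-detected genes below 0 (panel 6.49%) and 4 above (panel 7.27%), which is 10.7% and 1.07% of the 374. The 95% confidence interval reached 1.37 to each side of the estimate at the median gene, and 0.46 to 5.36 over the 374 genes. The smallest interaction that could be resolved thus differed between genes. With each library centred on its own median of the well-detected genes, 192 of 374 were below 0, the median interaction was -0.04, and 20 genes were below 0 and 18 above at an unadjusted p under 0.05. Without the 3 libraries of highest liver score the median was 0.03, and without Anti PDL1 2 alone it was -0.28.

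The median changes from IgG were 0.35 for Anti PDL1, 0.50 for Anti CTLA4 and 0.28 for the combination. In 239 genes both single antibodies lay above IgG. The combination lay below the sum of both changes in 231 of these, below the larger of them in 199, below both in 159 and below IgG itself in 25. In 87 genes both lay below IgG, and the combination lay above their sum in 83 of these, above both in 59 and above IgG in 17. The other 48 genes had changes of opposite sign. The changes share the IgG libraries, and the genes were sorted by the same single changes that make up the sum. This sorting favours a combination below the sum in the 239 genes and above it in the 87. These counts are thus descriptions without a test, and their shares over the panel were not counted.

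**Figure D2:**
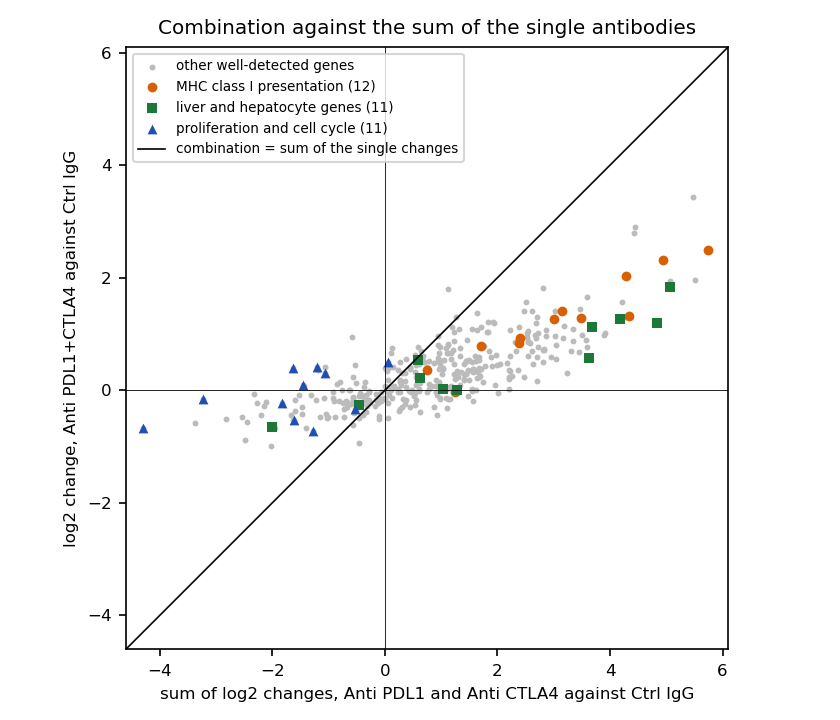
Log2 change of the combination from IgG (vertical axis) against the sum of the log2 changes of Anti PDL1 and Anti CTLA4 from IgG (horizontal axis) for the 374 well-detected genes, each a dot, with the diagonal where both are equal; MHC class I, liver and proliferation genes are marked. Of the 374 genes, 268 lie below the diagonal, among them all 12 MHC class I genes and none of the 11 proliferation genes.

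Before centring, the negative median was present at every level of expression. It was -0.46 in the 125 genes of lowest mean value (95.1 to 265) and -0.61 in the 124 of the middle group. In the 125 of highest mean value (727 to 79420) it was -0.94. The mean is geometric over the 12 libraries. After centring, the median of all 374 genes was -0.04, and the medians by level were not computed.

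Ifngr1, the ligand-binding chain of the interferon-gamma receptor, had the smallest interaction p and was also the only well-detected gene with a change that passed in any comparison. Its values were 168, 139 and 128 in IgG, 269.99, 593 and 418 in Anti PDL1, 342, 362 and 288 in Anti CTLA4, and 288, 359 and 229.9 in the combination. Every treated library lay above every IgG library, and the combination overlapped both single antibodies. Such separations from IgG or between groups are descriptions, here and for the genes below. Apart from a reversal like that of Ihh, by either antibody and in either order, their share over the 770 genes was not counted. Ifngr1 rose in Anti PDL1 by 1.49 ± 0.29 (SE, limma adjusted p = 0.0302), where 23 of 770 genes (2.99%) passed. The log2 differences from IgG in Anti CTLA4 (1.19, adjusted p = 0.0706; panel 2.6% called) and in the combination (0.99, adjusted p = 0.137; panel 2.86% called) did not pass with limma. The additive level was 925 and the observed geometric mean 287, an interaction of -1.68 (95% interval -2.62 to -0.75). Its estimate stayed between -1.98 and -1.15 over 25 alternatives, with -1.22 without the 3 libraries of highest liver score. The Anti PDL1 call ended without any 1 of 8 libraries, namely each IgG library, Anti PDL1 2 or 3, Anti CTLA4 1 or 2, or combination 1.

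The other contrasts gave no well-detected gene at a limma adjusted p of 0.05. At an unadjusted p under 0.05, Anti PDL1 against IgG had 61 genes (panel 19%), 53 of them higher (panel 9.22%) and 8 lower (panel 9.74%). Anti CTLA4 against IgG had 74 (panel 21.4%), 65 higher (panel 11.7%) and 9 lower (panel 9.74%). The combination against IgG had 46 (panel 15.5%), 41 higher (panel 7.14%) and 5 lower (panel 8.31%). The combination against Anti PDL1 had 2 such genes (panel 0.649%), 1 higher (panel 0.519%) and 1 lower (panel 0.13%), and 0% of the panel passed the adjusted threshold. Against Anti CTLA4 it had 18 (panel 4.29%), 4 higher (panel 1.69%) and 14 lower (panel 2.6%), with 0% of the panel called.

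**Figure D3:**
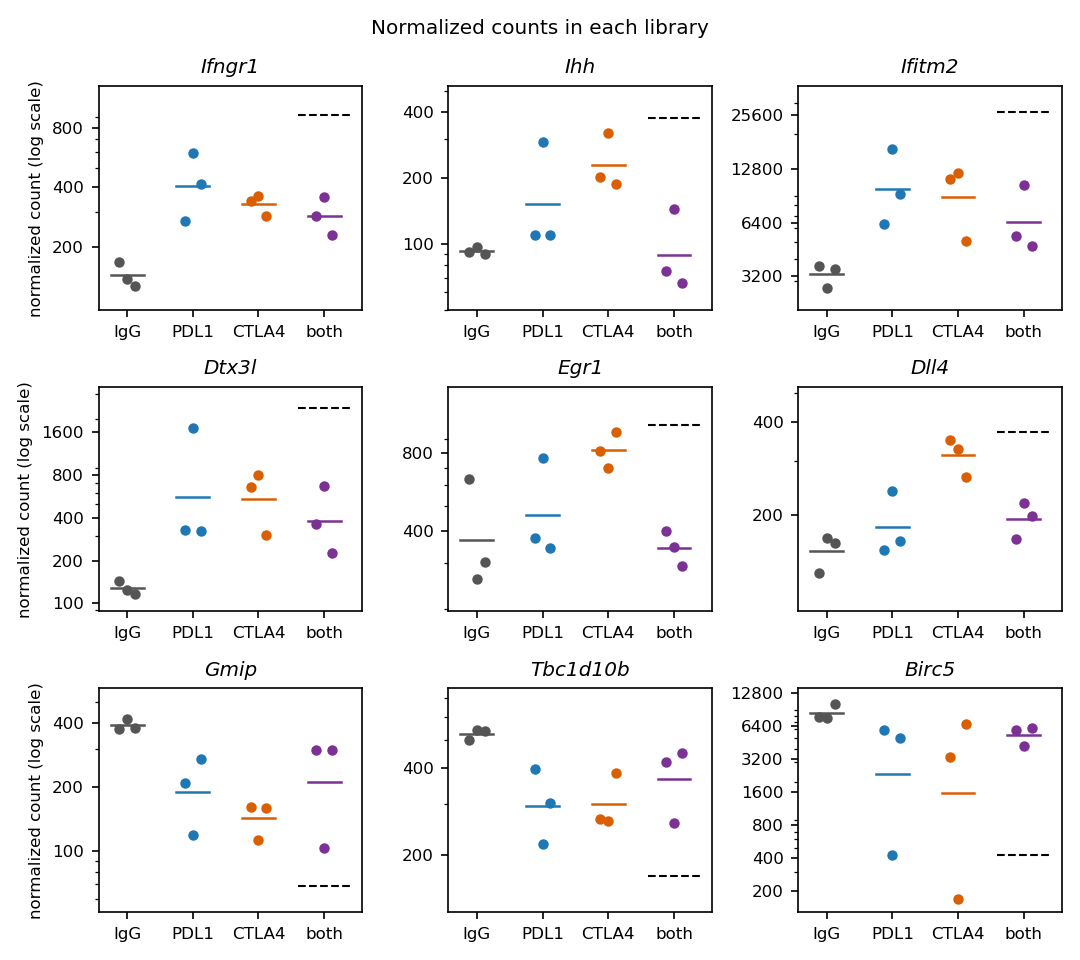
Values of 9 well-detected genes in each library on a log axis of deposited normalized counts, by group (IgG, PDL1, CTLA4, both); dots are libraries, bars are geometric means and the dashed line is the additive level. Ifngr1, Ihh, Ifitm2, Dtx3l, Egr1 and Dll4 lie below that line in the combination, and Gmip, Tbc1d10b and Birc5 above it.

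Genes induced by type I interferons lay below the additive level almost throughout. Of 20 well-detected members, 19 were below 0 and 1 above, 0 passed at the adjusted threshold and 3 had an unadjusted p under 0.05 (limma). For this and each later list, the shares to compare with are those of all 374 genes. Of these, 71.7% were below 0 (panel 56.2%). At an unadjusted p under 0.05, limma placed 10.7% below 0 (panel 6.49%) and 1.07% above (panel 7.27%). The median was -1.37 (-3.12 for Parp9 to 0.06 for Ifitm1), -0.83 after centring, -0.63 after quantile normalization and 0.37 without the 3 libraries of highest liver score. The median changes from IgG were 1.17 in Anti PDL1, 1.10 in Anti CTLA4 and 0.99 in the combination.

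Ifitm2, a membrane protein that restricts virus entry, had values of 3639, 2745 and 3536 in IgG and 6255, 16605 and 9205 in Anti PDL1. It had 11307, 12210.1 and 5077 in Anti CTLA4 and 5387, 10382 and 4703 in the combination. All treated libraries lay above all IgG libraries, and the combination overlapped both single antibodies. Against an additive level of 26666 the observed one was 6407, an interaction of -2.06 (SE 0.67, limma adjusted p = 0.321).

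Dtx3l, a ubiquitin ligase that pairs with Parp9, had 143, 125 and 117 in IgG, 326, 1710.3 and 323 in Anti PDL1, 659, 803 and 303 in Anti CTLA4, and 364, 671 and 228 in the combination. Here too every treated library lay above IgG, and the highest values were in Anti PDL1 2 and Anti CTLA4 2. The additive level was 2391 against 382 observed, an interaction of -2.64 (SE 0.96, limma adjusted p = 0.345). Without the 3 libraries of highest liver score the interaction was -1.01 for Dtx3l and -0.87 for Ifitm2.

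The interferon-gamma response list had 14 of 17 members below 0 and 3 above, with 0 called and 1 at an unadjusted p under 0.05, Ifngr1 (limma). Its median was -0.96, or -0.42 after centring, -0.36 after quantile normalization and 0.02 without the 3 libraries. The kinases of the receptor, Jak1 (-1.07) and Jak2 (-0.96), and the transcription factor Irf1 (-1.49, limma adjusted p = 0.368, and -0.21 without the 3 libraries) lay below 0. The second receptor chain Ifngr2 was at -0.26. The chemokine Ccl5 was at 0.05, and Cxcl10 was at -0.25 with an SE of 1.18 took the opposite sign after centring (0.29) and quantile normalization (0.39), and was at -1.41 without the 3 libraries. Several immunoproteasome genes stand in both this list and the MHC class I list, so the counts of these lists are not independent.

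MHC class I presentation, the display of peptides to CD8 T cells, lay wholly on one side. All 12 well-detected genes were below 0, none was called and 1, the proteasome subunit Psmb5 (-0.92), had an unadjusted p under 0.05 (limma). The median was -1.73 (-3.25 to -0.40), -1.2 after centring, -1.05 after quantile normalization and 0.23 without the 3 libraries of highest liver score. The median changes from IgG were 1.37 in Anti PDL1, 1.57 in Anti CTLA4 and 1.27 in the combination. Psmb5 reached 0.00 after quantile normalization and was at -0.41 without the 3 libraries.

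B2m, the light chain of class I molecules, had 4583, 3490.1 and 2406 in IgG and 8991, 134399.6 and 30071 in Anti PDL1. It had 31771, 40021 and 4913 in Anti CTLA4 and 15189.8, 38292 and 11775 in the combination. Anti PDL1 2 held the highest value by far, and the combination lay above IgG in every library. The additive level was 180662 and the observed one 18991, an interaction of -3.25 (SE 1.5, limma adjusted p = 0.355), which was -0.33 without the 3 libraries. The heavy chain H2-D1 was at -1.74 (SE 1.18) and reached 0.47 without them. Immunoproteasome subunits Psmb9 (-2.63) and Psmb8 (-2.26) and the peptide transporter Tap2 (-2.19) were among the lower members.

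MHC class II presentation, in which antigen-presenting cells display peptides to CD4 T cells, had 5 of 5 members below 0, 0 called and 0 at an unadjusted p under 0.05 (limma). The median was -1.54, -1.01 after centring, -0.42 after quantile normalization and -0.19 without the 3 libraries. H2-Ab1, a class II beta chain, had 184, 156 and 245 in IgG, 462, 7402 and 2590.2 in Anti PDL1, 1807, 591 and 479 in Anti CTLA4, and 2739.5, 2795 and 1199.8 in the combination. Every treated library lay above every IgG library, and the combination was close to Anti PDL1. The log2 differences from IgG were 3.43, 2.06 and 3.44, and the interaction was -2.04 (95% interval -4.95 to 0.87), or -0.38 without the 3 libraries. H2-Aa (-1.54, SE 1.08) and the invariant chain Cd74 (-1.61, SE 1.23) had the same order, and were at -0.24 and -0.17 without the 3 libraries.

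Checkpoint receptors and ligands on the panel had 11 well-detected members of 34, 9 below 0 and 2 above, 0 called and 0 at an unadjusted p under 0.05 (limma). The median was -0.62, -0.09 after centring, -0.07 after quantile normalization and -0.04 without the 3 libraries. Cd274, the PDL1 gene itself, had 81.4, 83.2 and 69.6 in IgG, 80.8, 424 and 127 in Anti PDL1, 216, 89.2 and 124 in Anti CTLA4, and 199.6, 174 and 172 in the combination. The 3 combination libraries lay close together above IgG, and Anti PDL1 2 alone was higher than they were in Anti PDL1. Its interaction was -0.62 (SE 0.79, 95% interval -2.39 to 1.14, limma adjusted p = 0.640), and it took the opposite sign in 4 of the 25 alternatives, with 0.17 without the 3 libraries.

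Cd86, a costimulatory ligand of CD28 and CTLA4, was at -0.30 (SE 0.44, limma adjusted p = 0.696), with differences from IgG of 0.49, 0.47 and 0.66, and was at 0.24 after centring and 0.23 without the 3 libraries. Cd47, the "do not eat me" signal read by macrophages through Sirpa, was at -1.61 (SE 0.79), at -0.90 without Anti PDL1 2 alone and at -0.27 without the 3 libraries. Tnfrsf14 (-2.26), Nectin1 (-1.97) and the immune ligand Lgals9 (-1.73) were lower still, and Cd276 was at 1.54.

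Macrophage markers had 10 of 12 members below 0 and 2 above, 0 called and 1 at an unadjusted p under 0.05 (limma). The median was -0.74, -0.20 after centring, -0.21 after quantile normalization and 0.06 without the 3 libraries. That 1 gene was the mannose receptor Mrc1, at -2.24 (SE 0.99, limma adjusted p = 0.353), with its highest values in Anti PDL1 2 (2929) and Anti CTLA4 2 (1934.4), and it was at -0.34 without the 3 libraries. The colony-stimulating factor receptor Csf1r, needed by macrophages, was at -1.16 and reached 0.18 without the 3 libraries. Cd68 was at 0.55 (SE 0.60), and its lowest value of 346 was in Anti CTLA4 2, beside 655 to 1454 elsewhere; the interaction was -0.38 without the 3 libraries. Clec7a, a fungal glucan receptor of myeloid cells, was at 1.48 (SE 0.67), or 0.38 without the 3 libraries.

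Proliferation and cell cycle genes lay on the other side of the additive level. All 11 well-detected genes were above 0, with 0 called and 0 at an unadjusted p under 0.05 (limma). The median was 1.56 (0.20 for Cdk2 to 3.63 for Birc5), 2.10 after centring, 1.97 after quantile normalization and -0.34 without the 3 libraries. The median differences from IgG were -0.49 in Anti PDL1, -0.84 in Anti CTLA4 and -0.15 in the combination. The limit of 60 admits 11 of the 22 proliferation genes on the panel, and a gene under 60 in any library, such as Mki67, is not counted.

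Birc5, an inhibitor of apoptosis needed for cell division, had 7809, 7693 and 10248 in IgG and 5902, 427 and 5038 in Anti PDL1. It had 3383, 171 and 6692 in Anti CTLA4 and 5942, 4206 and 6147 in the combination. Anti PDL1 2 and Anti CTLA4 2 were far below the other 10 libraries, and the combination lay below IgG in all 3. The observed level was 5356 against an additive one of 430.3, an interaction of 3.63 (SE 1.91, 95% interval -0.67 to 7.94, limma adjusted p = 0.379), which was 0.32 without the 3 libraries of highest liver score. Ube2c, a ubiquitin enzyme of mitotic exit, was at 3.09 and Rrm2, a subunit of ribonucleotide reductase, at 2.04.

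Slc7a5, a transporter of large amino acids, had 1996, 2142 and 2825 in IgG, 1554, 151 and 1481 in Anti PDL1, 1025, 226 and 1616 in Anti CTLA4, and 1778, 913 and 2169.6 in the combination. The lowest values were again those of Anti PDL1 2 and Anti CTLA4 2. Its interaction was 2.78 (SE 1.36, limma adjusted p = 0.368), or 0.51 without the 3 libraries. Homologous recombination and DNA repair genes were mixed, with 6 of 16 below 0, 10 above and 0 called, and a median of 0.34, 0.88 after centring and -0.18 without the 3 libraries. The break sensor Nbn was at -0.92 (SE 0.33; -0.58 without the 3 libraries), the only one with an unadjusted p under 0.05.

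Liver and hepatocyte genes had 9 of 11 members below 0 and 2 above, 0 called and 1 in each direction at an unadjusted p under 0.05 (limma). The median was -1.29, -0.76 after centring, 0.27 after quantile normalization and 0.37 without the 3 libraries that are highest for these genes. Arg1, the urea cycle arginase of hepatocytes and of some macrophages, had 1634, 962 and 1082 in IgG and 1624, 22549 and 4059 in Anti PDL1. It had 10431, 19837 and 2186 in Anti CTLA4 and 1367, 9263 and 1586 in the combination. The groups overlapped, and 1 or 2 libraries in each treated group were many times above the rest. Its interaction was -3.65 (SE 1.61, limma adjusted p = 0.353) and -0.79 without the 3 libraries. The lipid carrier Apoe (-2.55, SE 1.47) reached 0.27 without them.

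Ihh, the Indian hedgehog ligand that signals between epithelium and stroma, was the well-detected gene in which the PDL1 antibody went with higher values alone and lower values on top of the other antibody. It had 91.9, 96.2 and 89.4 in IgG, 109, 289.95 and 109 in Anti PDL1, 202, 320.2 and 186 in Anti CTLA4, and 74.8, 143 and 66.1 in the combination. All Anti PDL1 libraries lay above all IgG libraries, and all combination libraries lay below all Anti CTLA4 libraries. A reversal of this kind, counted for either antibody and in either order of directions, held in 2 of 770 genes (0.26%). Ihh was the well-detected one. The additive level was 375 and the observed one 89.2, close to IgG, an interaction of -2.06 (SE 0.63, 95% interval -3.47 to -0.64, limma adjusted p = 0.266). It was -1.29 without the 3 libraries.

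Dll4, a Notch ligand of endothelial tip cells, had 129, 168 and 162 in IgG, 153, 239.5 and 164 in Anti PDL1, 351, 328 and 265 in Anti CTLA4, and 167, 219 and 198 in the combination. All Anti CTLA4 libraries lay above all other libraries, those of the combination included. Its interaction was -0.94 (SE 0.33, limma adjusted p = 0.345), or -0.51 without the 3 libraries. The Notch list had 6 of 6 members below 0, 0 called and 2 at an unadjusted p under 0.05, with a median of -0.77, -0.24 after centring, -0.32 after quantile normalization and -0.10 without the 3 libraries.

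Egr1, an immediate early transcription factor downstream of MAP kinase, had a similar order with more spread. It had 633, 261 and 302 in IgG, 377, 761 and 343 in Anti PDL1, 809, 696 and 963 in Anti CTLA4, and 398, 348 and 293 in the combination. All Anti CTLA4 libraries lay above all combination and IgG libraries. Its interaction was -1.57 (SE 0.55, limma adjusted p = 0.345) and -1.45 without the 3 libraries. The MAPK and receptor tyrosine kinase list had 6 of 10 members below 0, 0 called and 2 below 0 at an unadjusted p under 0.05 (limma), with a median of -0.29 that became 0.24 after centring and 0.17 without the 3 libraries. The growth factor receptors Egfr (-2.48) and Met (-1.42) were its lowest members beside Egr1, and Nras was at 0.73, or 0.18 without the 3 libraries.

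Endothelial genes had 9 of 13 members below 0, a share near the 71.7% of all 374 genes, and 4 above. With limma, 0 were called and 1 was below 0 at an unadjusted p under 0.05, beside 10.7% of the 374. The median was -0.73. It was -0.19 after centring, -0.22 after quantile normalization and -0.25 without the 3 libraries. That gene was Cdh5, the cadherin of endothelial junctions, which had 186, 128 and 199.8 in IgG, 279, 708 and 344 in Anti PDL1, 378, 388 and 327 in Anti CTLA4, and 319, 430.3 and 356 in the combination. Every treated library lay above every IgG library, a separation whose share over the panel was not counted, and the treated groups overlapped. Its interaction was -1.27 (SE 0.47), or -0.72 without the 3 libraries. The growth factor Vegfa had 3215 in Anti PDL1 2, 2639 and 3906 in Anti CTLA4 1 and 2, 1330.3 in combination 2, and 329 to 763 in the other 8 libraries. Its interaction was -2.82 (SE 1.26) and -0.27 without the 3 libraries. The adhesion molecule Icam1 was at 0.89, or 0.70 without the 3 libraries.

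Signalling in NF-kB and TNF pathways had 14 of 15 members below 0, 0 called and 3 at an unadjusted p under 0.05 (limma). The median was -1.13, -0.59 after centring, -0.46 after quantile normalization and 0.40 without the 3 libraries. Ripk1, a kinase of the TNF receptor complex, had 111, 109 and 70.7 in IgG, 171, 466 and 210.3 in Anti PDL1, 263, 346 and 143 in Anti CTLA4, and 182, 251 and 159 in the combination. All treated libraries lay above all IgG libraries and overlapped each other. Its interaction was -1.70 (SE 0.64), or -0.56 without the 3 libraries.

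Apoptosis and p53 genes had 7 of 13 below 0, 0 called, 2 below and 1 above at an unadjusted p under 0.05, with a median of -1.01, -0.47 after centring and 0.06 without the 3 libraries. Casp8, an initiator caspase, was at -1.67 (SE 0.62; -0.61 without the 3 libraries), whereas Bax, which opens mitochondria, was at 1.2 (SE 0.51; 0.43 without them) and the cell cycle inhibitor Cdkn1a at 2.25.

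The remaining lists are given more briefly, with 0 genes called in each (limma). Their counts stand beside 71.7% of all 374 genes below 0. Members below 0 were 11 of 13 for PI3K, AKT and mTOR (median -0.78, centred -0.25, and -0.12 without the 3 libraries), with Mtor at -1.41, or -0.20 without them. They were 8 of 10 for epigenetic regulators (median -0.78, centred -0.24, and -0.13 without the 3), with Hdac4 at -1.30, or -0.41 without them. For glutamine and amino acid metabolism they were 6 of 7 (median -1.29, centred -0.76, quantile 0.27, and 0.37 without the 3). Of these genes Arg1, Tdo2, Glul, Got1 and Got2 also stand in the liver list. Glul gives the median of both lists, so they are not independent. Complement had 4 of 5 below 0 (median -0.56, quantile 0.16, and -0.17 without the 3), with C2 at -2.68, or -0.36 without them. Fibroblast and collagen genes had 4 of 7 (median -0.33, centred 0.20, and -0.76 without the 3), with Zeb1 at -1.55, or -0.76 without them. TGF-beta and BMP had 5 of 6 (median -0.23, centred 0.30, and 0.14 without the 3), with Tgfbr1 at -0.62, or -0.46 without them. Glycolysis and hypoxia genes were split, 10 of 17 below 0 (median -0.02, centred 0.52, and -0.27 without the 3), and housekeeping genes 10 of 16 (median -0.10, centred 0.44, and 0.01 without the 3). The mean log2 level of the housekeeping genes on the panel was 9.29 to 9.36 in every library, which holds their mean interaction near 0. The sources used here do not say whether these genes set the scaling.

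Lists with 3 or fewer well-detected members gave single genes. The neutrophil list had 3 below 0 of 3 (S100a8 -1.40, Cxcl1 -2.01). The dendritic cell list had 2 of 3, Cd1d1 (-2.77) and Hsd11b1 (-3.55), with Irf8 at 0.08. The mean log2 level of these 3 genes was highest in the libraries highest for liver genes. It was 12.01 in Anti PDL1 2, 11.26 and 11.34 in Anti CTLA4 1 and 2, and 10.73 in combination 2, against 8.36 to 9.80 elsewhere. Whether these genes reflect dendritic cells was not tested. The Wnt list had 2 of 3, with Ccnd1 at -2.18 (-0.21 without the 3 libraries), and the epithelial list 0 of 2. The NK and cytotoxic list had Gzma at -0.17.

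Myc, the gene after which the tumour is named, had 126, 103 and 80.6 in IgG, 119, 523 and 125 in Anti PDL1, 171, 215 and 119.8 in Anti CTLA4, and 129.9, 181 and 146 in the combination. The sources used here do not say whether the panel probe reads a MYC transgene. Apart from Anti PDL1 2, the libraries lay between 80.6 and 215. Its interaction was -1.08 (SE 0.75, limma adjusted p = 0.434) and 0.06 without the 3 libraries of highest liver score. Mxi1, which competes with MYC for its partner MAX, was at 0.52.

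**Figure D4:**
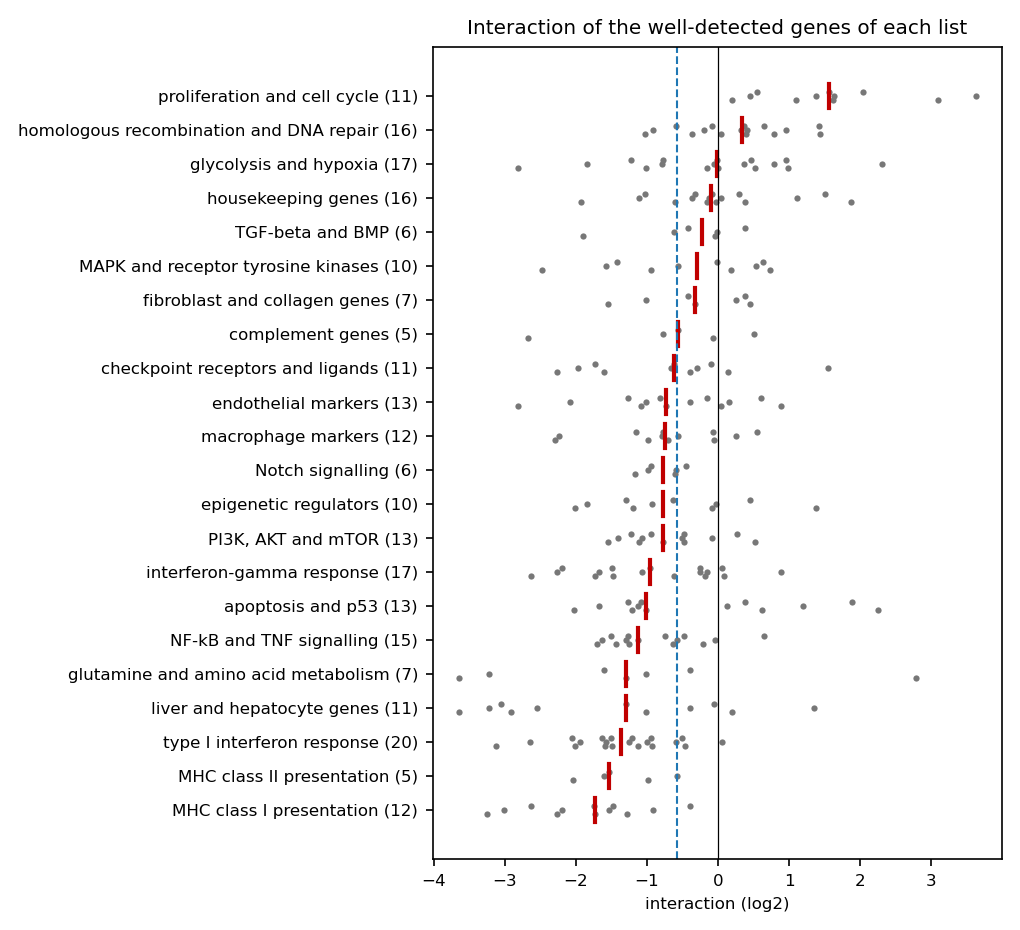
Interaction (log2, horizontal axis) of the well-detected members of each gene list; dots are genes, red marks the list median and the dashed blue line the median of all 374 genes, -0.58. MHC class I (12 genes) and class II (5 genes) lie wholly below 0 and proliferation (11 genes) wholly above 0.

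Among the remaining genes of smallest p, Cdh2, an adhesion cadherin, was at -2.51 (SE 0.90), with 2336 in Anti PDL1 2 and 1475 in Anti CTLA4 2 beside 219.7 to 336 in IgG. Its interaction was -0.90 without the 3 libraries and -1.16 with the liver score as a covariate. The Arf GTPase-activating protein Smap1 was also below 0 (-0.94, SE 0.34), at -0.38 without the 3 libraries. Above 0, Gmip, a GTPase-activating protein, had 375, 416 and 379.8 in IgG, 208, 119.8 and 269 in Anti PDL1, 162, 113 and 160.1 in Anti CTLA4, and 299, 104 and 299.9 in the combination. All single-antibody libraries of Gmip lay below IgG, and 2 of 3 combination libraries lay between the groups. Its interaction was 1.60 (SE 0.62), or 1.11 without the 3 libraries.

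Tbc1d10b, a GTPase-activating protein of Rab proteins that the panel also uses as a reference gene, had 502, 542 and 539.9 in IgG, 396, 219 and 303 in Anti PDL1, 268, 262 and 386 in Anti CTLA4, and 422, 258 and 450.9 in the combination. It lay below IgG in every treated library, with an interaction of 1.11 (SE 0.40), or 0.53 without the 3 libraries. Thbs1 (1.24) and Tpm1 (1.05) were also above 0, and were at 0.45 and 0.18 without the 3 libraries.

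**Figure D5:**
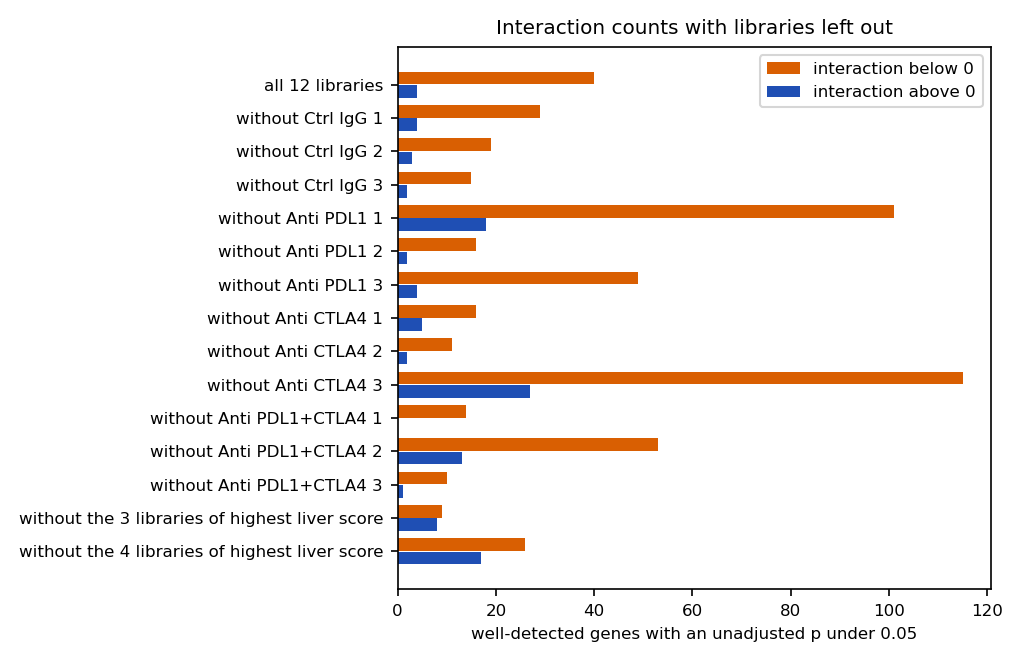
Number of well-detected genes at an unadjusted interaction p under 0.05 (bars starting at 0), below and above 0, over all 12 libraries and with each library left out. The count below 0 is 40 with all libraries and 115 without Anti CTLA4 3, 101 without Anti PDL1 1 and 10 without combination 3.

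The count of genes below 0 at an unadjusted p under 0.05 depended on single libraries. It was 115 without Anti CTLA4 3 and 101 without Anti PDL1 1, the lowest for liver genes in their groups. It was 16 without Anti PDL1 2, 16 without Anti CTLA4 1, 11 without Anti CTLA4 2, 19 and 15 without IgG 2 and IgG 3, and 14 and 10 without combination 1 and combination 3. The count above 0 ran from 0 without combination 1 to 27 without Anti CTLA4 3. Without the 3 libraries of highest liver score, 9 genes were below 0 and 8 above.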

How the data were processed

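Targeted RNA was measured in 12 libraries, 3 mice in each of 4 groups taken from the sample titles. The deposited values are a signal, normalized probe counts made by the authors; per the labels they come from FFPE total RNA on the mouse IO360 panel. The sources used here do not name the software or the normalization. Above a floor of 20, at least 99.84% of values in each library were whole multiples of 1 step (within 0.0075), with factors of 0.562 to 2.625; because values at the floor cannot be turned back, no count model was run. Control probes (14) were left out. Gene names were matched to RefSeq (GRCm38.p6), 372 of the 374 as symbols and 2 as synonyms.

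The limma package (3.58.1, under R 4.3.3) fitted all 770 genes on the log2(value + 1) scale (1 mean per group, mean-variance trend, 8 residual degrees of freedom). Tests were two-sided with Benjamini-Hochberg adjustment over 770 genes and a threshold of 0.05; the scripts were tested on simulated data. Figures used Python 3.11.15 and matplotlib 3.10.9. Precision is limited by the 3 mice per group and by counting error.

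The members and the 30 gene lists (871 entries) were chosen with earlier results of these data known. Lists are described by counts and medians, with no set test. Genes named were the 10 of smallest interaction p in each direction (none passed), the smallest p of each list with at least 4 members, fixed genes, and the genes next to the limit of 60; others were picked from the lists after their values were seen. Alternatives changed the pseudocount, filter, scaling, variance model, covariates, libraries and the limit for members. Some genes that this rule selects are not reported here.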

Additional observations from a re-analysis of the deposited data

Results flagged for a closer look

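The interaction of Ihh was -2.06 on the log2 scale. It stands out because the PDL1 antibody went with higher values in every library when given alone and with lower values in every library when added to the CTLA4 antibody. The interaction test of this difference gave a limma adjusted p of 0.266. A reversal by either antibody, in either order of directions, was looked for in all 770 genes.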

How the results depend on the processing

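Depth limits genes near 60, where 1 library rests on 23 counts. The planned count model was not run, since values at the floor hold no count. Sample quality weights (0.117 for Anti PDL1 2 to 9.87 for Anti PDL1 3) came from an estimate that stopped before it converged. Without the 3 libraries of highest liver score (chosen, like the 4, after seeing the data), the lone Anti CTLA4 library is assumed to vary like the others. The main value is given in brackets below; the cause of each difference was not tested. Interaction calls in well-detected genes (0) were 204 with weights, 0 to 1 with 1 library left out (Ifngr1 without Anti PDL1 1) and 0 under the others. Over the panel (10) they were 0 under both filters and after centring, 1 after quantile normalization, 337 with weights, 6 with the liver score as covariate, 3 without the 4 libraries of highest liver score and 5 to 24 with 1 left out. The median interaction (-0.58) was -0.04 after centring, -0.05 after quantile normalization, -0.07 with the covariate, 0.03 without the 3 and -0.05 without the 4 libraries, and -0.78 to -0.28 with 1 left out; centring moved the panel median from -0.18 to 0.35. Genes below 0 (268) were 180 to 275 among the 374 members; 192 after centring and 194 after quantile normalization. At an unadjusted p, genes below 0 (40) were 20 after centring, 21 after quantile normalization, 180 with weights, 9 without the 3, 26 without the 4 and 10 to 115 with 1 left out; genes above 0 (4) were 18, 14, 54, 8, 17 and 0 to 27 in the same order, and 7 without the trend. Calls for Anti PDL1 against IgG (1) were 0 under both filters, 6 after centring, 2 after quantile normalization, 4 without the trend, 148 with weights, 31 with the covariate, 0 without the 3, 4 without the 4 and 0 to 9 with 1 left out. For Anti CTLA4 against IgG (0) they were 1 without the trend, 216 with weights, 1 with the covariate, 2 without the 4 and 0 to 14 with 1 left out. For the combination against IgG (0) they were 3 after centring, 3 after quantile normalization, 92 with weights, 25 with the covariate, 29 without the 3, 3 without the 4 and 0 to 7 with 1 left out. Against Anti CTLA4 (0) they were 161 with weights, 1 without the 3 and 1 without the 4; against Anti PDL1 (0) 35 with weights. The sample titles do not say whether replicate numbers pair the samples, and pairing was not tested. Deviations of same-numbered libraries correlated at -0.65 to 0.78 in 18 pairs, 11 of them over 0.1. In all, 7 of 12 libraries correlated best with their own number. Among treated libraries, pairs numbered 2 correlated at 0.71 to 0.78, those numbered 3 at 0.32 to 0.57 and those numbered 1 at -0.65 to 0.76. Anti PDL1 2, Anti CTLA4 2 and combination 2 are also among the libraries highest for liver genes. With the replicate block, interaction calls were 0 in well-detected genes and 9 over the panel, Anti PDL1 had 4 calls, Anti CTLA4 3, and genes at an unadjusted p were 72 below and 17 above 0. Of 48 named genes, 38 kept their sign under 25 alternatives. The others were Apoe (0.27 without the 3), Csf1r (0.18 without the 3), Myc (0.06 without the 3), Psmb5 and Tgfbr1 (0.00 after quantile normalization), Cd274 (0.08 with the covariate, 0.17 without the 3, 0.20 without the 4, and -1.13 to 0.06 with 1 left out), Cd68 (-0.12, -0.38 and -0.21 with the covariate, without the 3 and without the 4), H2-D1 (0.02, 0.47 and 0.20 likewise), Cd86 (0.24 after centring, 0.16 after quantile normalization, 0.11, 0.23 and 0.20 likewise, -0.52 to 0.08 with 1 left out) and Cxcl10 (0.29 after centring, 0.39 after quantile normalization, 0.64 with weights, -1.12 to 0.41 with 1 left out). Of 22 list medians, 16 changed sign under at least 1 alternative.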

Other observations

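The 10 panel genes that passed for the interaction (limma) were Cd70, Dkk1, Fam124b, Ifng, Il17a, Il6, Jup, Pnoc, Tcl1 and Tnfrsf17, and none was well detected. All had positive estimates, with IgG means of 28.7 to 59.4 and means at or near the floor of 20 in the treated groups. Where the treated groups all sit at the floor, the estimate equals the difference between IgG and the floor. Ccl3, a chemokine below the limit of 60, was the other gene in which an antibody went in opposite directions alone and when added, with an interaction of 2.01 (limma adjusted p = 0.0614) and with 3 libraries listed at 20.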
